A study of Mus musculus with 41 samples.

Results

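Uhrf1, the DNA methyltransferase genes and the genes that work with them were followed through 41 RNA-seq libraries of mouse regulatory T cells (Treg cells). The 9 members (Uhrf1, Dnmt1, Hells, Usp7, Uhrf2, Dnmt3a, Dnmt3b, Mbd1 and Mbd2) were taken by gene symbol from the 19434 genes of the count table. The study deleted Uhrf1 in Foxp3-expressing cells in 2 experiments on 8-week-old mice. In the chimera experiment, CD25hi Foxp3-YFP+ Treg cells came from female Uhrf1+/+ Foxp3YFP-Cre/YFP-Cre mice (chimera control, n = 4) or female Uhrf1fl/fl Foxp3+/YFP-Cre mice (chimera knockout, n = 4), so both groups carry the Cre, on both X chromosomes in the controls and on 1 in the knockouts. In the pulse-chase experiment, Uhrf1+/+ (control, n = 5 per population) and Uhrf1fl/fl mice (fl/fl, n = 6 per population) all carried Foxp3GFP-CreERT2, a Cre that acts only with tamoxifen, and a tdTomato reporter at Rosa26. The animals were fed tamoxifen chow (2 weeks) and then standard chow (4 weeks), after which 3 populations were sorted: labeled Treg cells (GFP+ tdTomato+), ex-Foxp3 cells (GFP negative, tdTomato+) and post-tamoxifen Treg cells (GFP+, tdTomato negative). The reporter marks cells in which the Cre has acted. Post-tamoxifen cells carry no such mark, so the sort does not show that Uhrf1 was deleted in them. The tissue the cells were taken from is not given in the sources used here.

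Cytosine methylation at CpG sites is copied onto the new strand each time DNA is replicated. UHRF1 binds the hemi-methylated site left by replication and, through ubiquitin marks on histone H3, brings in DNMT1, the maintenance methyltransferase; the HELLS remodelling ATPase opens nucleosomal DNA to this machinery, and the deubiquitinase USP7 binds both UHRF1 and DNMT1. UHRF2 is a paralog of UHRF1, DNMT3A and DNMT3B place new methyl groups, and MBD1 and MBD2 bind methylated CpG and recruit repressors. In Treg cells, demethylated regions in Foxp3 and other Treg genes are a known feature of the stable lineage, and Uhrf1, Dnmt1 and Hells are known to be transcribed most in dividing cells, which Mki67, the gene of the proliferation marker Ki-67, marks.

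In mm10 (GRCm38), the build of the files, Uhrf1 lies at chr17:56303321-56323486 (+), Dnmt1 at chr9:20907206-20959888 (-), Hells at chr19:38930915-38971051 (+), Usp7 at chr16:8689595-8792308 (-), Uhrf2 at chr19:30030513-30093722 (+), Dnmt3a at chr12:3806007-3914443 (+) and Dnmt3b at chr2:153649450-153687730 (+). A value is the count over a whole gene, so it does not show which exons are present; the floxed exons were not stated in the labels, and a transcript that lacks them would still be counted. An antisense gene, Dnmt3aos, shares 133 exon bases with Dnmt3a, and the strand setting of the counting is not given in the sources used here.

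Promoter windows of 7 of the 9 members were read from the RefSeq table (12 windows, GRCm38.p6), each from 250 bases before to 50 bases after an annotated start. Mbd1 and Mbd2 were left out of the search, so nothing is said of their promoters. The 3 members that followed Mki67 in the results below, Uhrf1, Dnmt1 and Hells, each had a window with the letters of an E2F element, the element through which E2F factors act on genes of the cell cycle. The letters searched were TTTCCCGC, TTTGGCGC, TTTCGCGC and TTTGCCGC on both strands, and 2.26% of 32851 windows (2.60% of 27025 genes) hold at least 1. The windows are shown 5′ to 3′ on the strand of the gene, with the matched letters in capitals; they lie at chr17:56304063-56304362 (+), chr9:20952574-20952873 (-) and chr19:38930740-38931039 (+).
Uhrf1: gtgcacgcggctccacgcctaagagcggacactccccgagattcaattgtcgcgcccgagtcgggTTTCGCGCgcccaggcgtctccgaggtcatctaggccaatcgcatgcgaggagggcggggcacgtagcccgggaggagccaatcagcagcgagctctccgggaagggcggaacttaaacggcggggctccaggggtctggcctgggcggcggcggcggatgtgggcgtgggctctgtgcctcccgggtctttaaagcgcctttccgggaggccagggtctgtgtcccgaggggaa
Dnmt1: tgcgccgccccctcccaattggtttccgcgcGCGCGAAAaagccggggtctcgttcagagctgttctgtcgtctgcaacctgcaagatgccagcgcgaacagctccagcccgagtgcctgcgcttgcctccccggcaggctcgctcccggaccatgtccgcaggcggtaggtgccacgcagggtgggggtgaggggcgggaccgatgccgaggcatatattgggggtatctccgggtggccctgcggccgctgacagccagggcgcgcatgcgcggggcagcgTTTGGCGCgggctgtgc
Hells: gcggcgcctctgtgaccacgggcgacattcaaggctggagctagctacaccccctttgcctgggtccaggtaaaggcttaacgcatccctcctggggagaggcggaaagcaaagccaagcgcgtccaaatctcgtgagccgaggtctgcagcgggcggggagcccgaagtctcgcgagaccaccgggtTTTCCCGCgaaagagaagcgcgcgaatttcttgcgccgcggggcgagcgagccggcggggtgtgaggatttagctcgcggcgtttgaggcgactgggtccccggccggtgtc
In Uhrf1 the match, TTTCGCGC, covers bases -185 to -178 from the start, on the strand of the gene. In Dnmt1 there are 2 matches, TTTCGCGC on the opposite strand at -219 to -212 and TTTGGCGC at 34 to 41, and in Hells TTTCCCGC lies at -62 to -55. No window of Uhrf2, Usp7, Dnmt3a or Dnmt3b held these letters, nor did the other windows of Uhrf1 and Dnmt1. The letters CCAAT (37.4% of windows) and TTTGAA (17.9% of windows), elements found in many cell cycle promoters, were also searched on both strands. CCAAT was in windows of Uhrf1, Dnmt1 and Usp7 and in none of Hells, and TTTGAA in windows of Dnmt1 and Dnmt3b and in none of Uhrf1 and Hells, so these letters did not mark the same 3 members. A match of letters is a description and not a site shown to be bound.

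Depth ran from 2403189 to 5709702 counts per library in the chimera experiment and from 781437 to 3435802 in the pulse-chase experiment. Replicates all differed from each other by more than sampling noise. Levels are counts per 1000000 (CPM) scaled by TMM within each experiment, so values are not compared across the 2 experiments. In the labels the libraries are biological replicates, and the labels do not say whether a number shared by populations is 1 mouse. Mki67 split the fl/fl libraries by number: in labeled cells numbers 1 to 3 lay at 1110 to 1653 CPM and numbers 4 to 6 at 180 to 209, and in post-tamoxifen cells at 1462 to 2316 and 174 to 267. Control labeled numbers 1 to 3 (510 to 903) likewise stood above numbers 4 and 5 (152 and 155). Foxp3, the sorted gene, was at 317 to 508 CPM in labeled cells and 13.3 to 151 in ex-Foxp3 cells, but control post-tamoxifen 2 (123) and fl/fl post-tamoxifen 3 (128) lay at ex-Foxp3 levels, where the other post-tamoxifen libraries held 287 to 537. All post-tamoxifen libraries except control post-tamoxifen 2 (34.9 CPM) also carried more summed mRNA of 7 myeloid markers than labeled libraries. They held 167 to 375 CPM in controls and 68.1 to 552 in fl/fl, against 33.3 to 54.4. The fl/fl post-tamoxifen numbers 1 to 3 held more B and plasma cell marker mRNA (256 to 672, against 41.5 to 130.5 in all other pulse-chase libraries). The part of these transcripts in the members' levels was not tested.

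All 9 members passed the filter on low counts in both experiments. Set per kilobase of exon, Mbd2 (74.99 to 84.4 CPM per kb as group means in the chimera experiment, 83.1 to 110.1 in the pulse-chase experiment), Usp7 (51.1 to 51.6 and 44.5 to 50.4) and Dnmt1 (35.6 to 36.3 and 40.1 to 58.0) stood highest. Dnmt3a (16.8 to 18.1 and 11.2 to 18.0), Uhrf2 (15.1 to 15.7 and 13.4 to 15.7) and Mbd1 (11.8 to 12.2 and 10.1 to 11.04) were intermediate. Hells (4.41 to 5.14 and 5.42 to 10.2), Uhrf1 (3.07 to 5.91 and 3.92 to 19.9) and Dnmt3b (2.84 in both chimera groups, 1.69 to 2.23 in the pulse-chase experiment) were lowest. Across the 33 pulse-chase libraries, Uhrf1 spanned 22.3-fold, close to the 24.8-fold of Mki67, Hells 6.22-fold, Dnmt3b 4.38-fold, Dnmt1 2.40-fold and Dnmt3a 2.40-fold. Mbd1 (2.02-fold), Mbd2 (1.86-fold), Uhrf2 (1.77-fold) and Usp7 (1.33-fold) varied least.

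**Figure D1:**
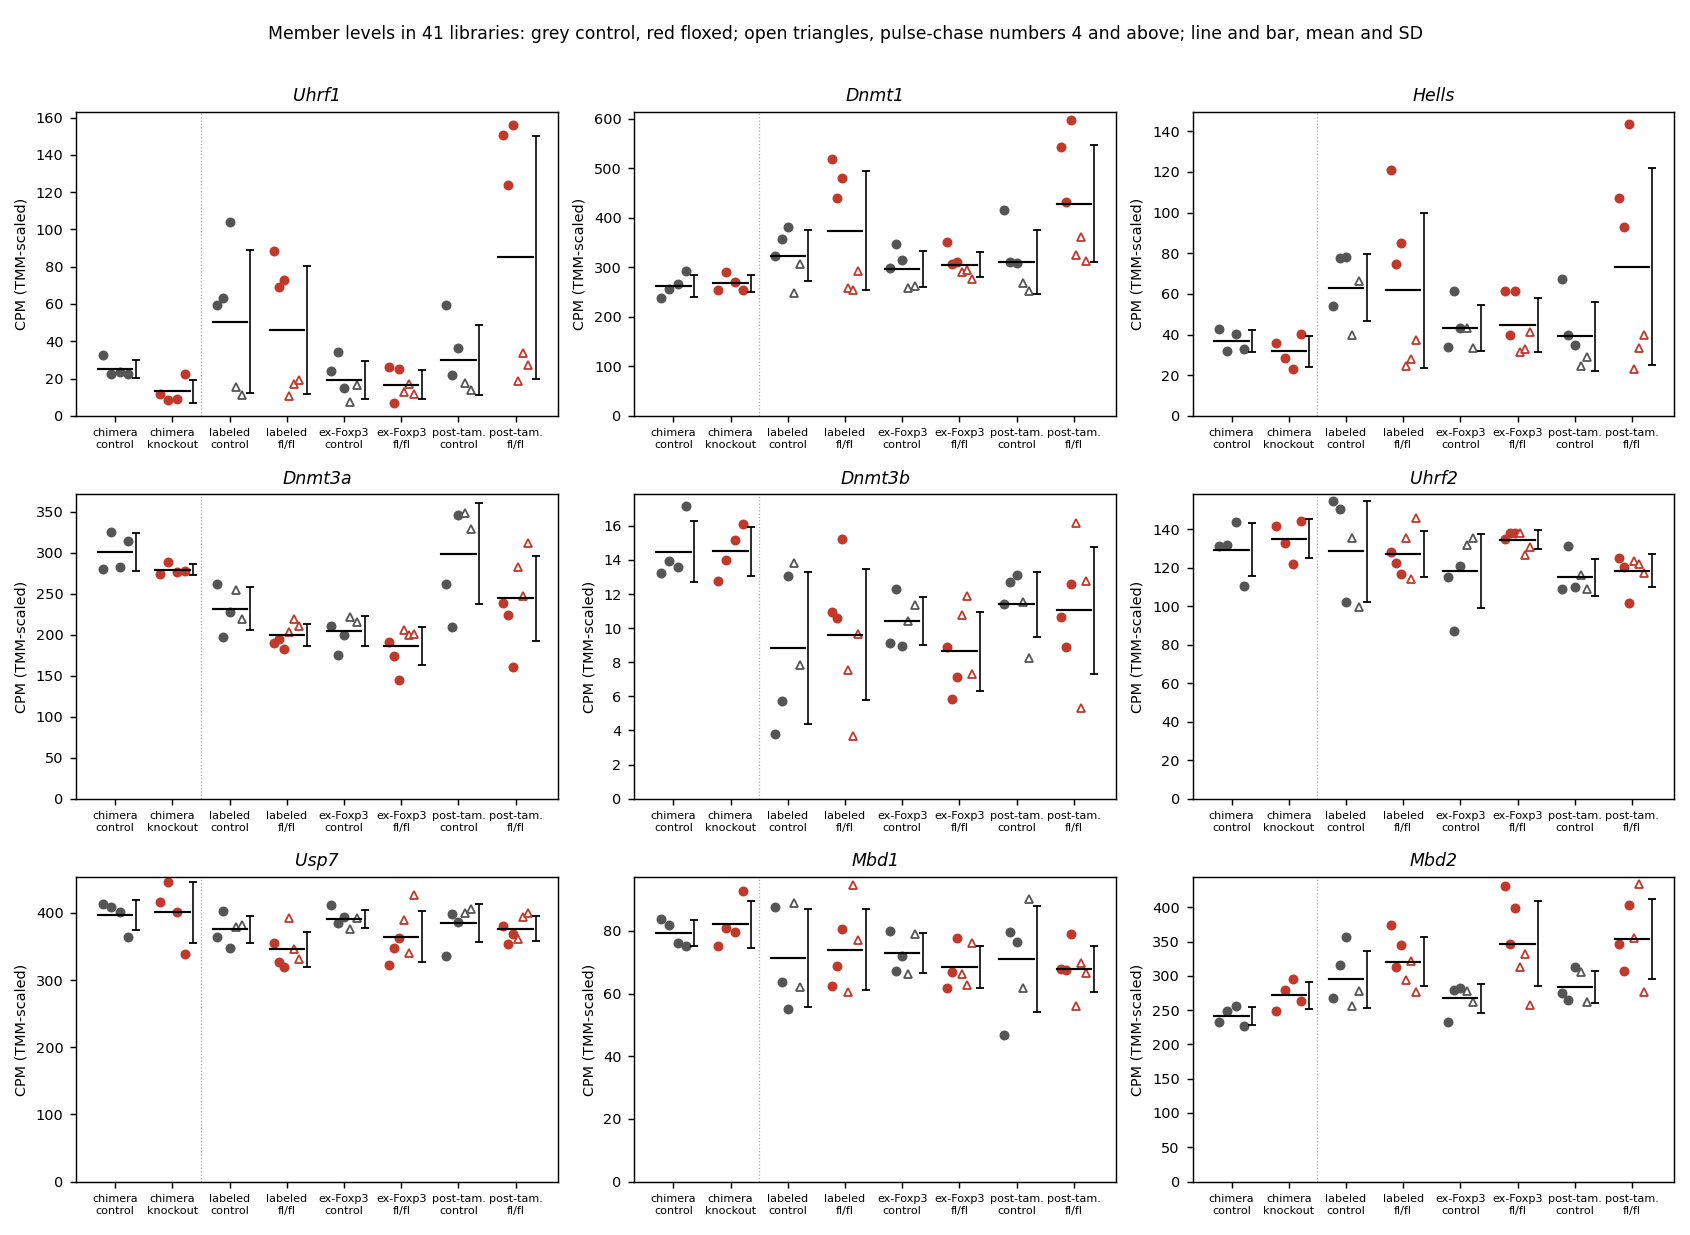
Level of each member in CPM (linear axes from 0) in every library of the 8 groups, the chimera groups left of the dotted line; grey is control, red is floxed, and open triangles are pulse-chase numbers 4 and above. Horizontal lines are group means and bars are SD; Uhrf1 reaches 156 CPM in fl/fl post-tamoxifen cells and lies at 8.66 to 22.3 in chimera knockout cells, while Usp7 stays between 320 and 447 CPM in all libraries.

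The design gave 4 comparisons of genotype and 6 of population, tested over all genes with edgeR's quasi-likelihood test at an adjusted p (Benjamini-Hochberg) under 0.05. A member was called in 3 of them. Uhrf1 was called between chimera genotypes (1 of 9 members, where 2.41% of all genes were called). Dnmt3a was called between ex-Foxp3 and post-tamoxifen cells of controls (1 of 9, background 5.33%), and Dnmt3a and Uhrf1 between the same populations of fl/fl mice (2 of 9, background 15.2%). The other 7 comparisons called 0 of 9 members with edgeR and with DESeq2. Their backgrounds were 0.0101% for genotype in labeled cells, 0.181% in ex-Foxp3 cells and 7.23% in post-tamoxifen cells. They were 0.353% and 4.09% for ex-Foxp3 against labeled cells of control and fl/fl mice, and 7.93% and 4.58% for post-tamoxifen against labeled cells. At an unadjusted p under 0.05 edgeR had 0 members for genotype in labeled cells, 5 in post-tamoxifen cells and 1 in each of the other 5. The share of all genes at that unadjusted level is not given, so these counts have no background beside them. In post-tamoxifen cells Hells, with the highest p of the 5 (edgeR unadjusted p = 0.0255), ranked 1779 by p among 9921 genes. Whether the genotype difference changed from labeled to ex-Foxp3 cells or to post-tamoxifen cells was tested as an interaction, which called 0 of 9 members both times with edgeR and DESeq2 (backgrounds 0% and 0.0202%, and 0 members at an unadjusted p under 0.05).

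Uhrf1, the targeted gene and the reader of hemi-methylated CpG, was lower in chimera knockout than in chimera control Treg cells. Its level was 32.5, 22.4, 23.4 and 22.3 CPM in chimera controls 1 to 4 (25.2 ± 4.92, SD, n = 4) and 12.0, 8.66, 9.27 and 22.3 CPM in the libraries labelled chimera knockout 1 to 4 (13.1 ± 6.35, n = 4). The first 3 knockout libraries lay below every control, and the library labelled knockout 4, with 75 counts of Uhrf1, lay at the level of control 4. The log2 fold change was -0.95 ± 0.25 (SE; edgeR adjusted p = 0.0378). Without the library labelled knockout 4 it was -1.33 (edgeR adjusted p = 0.000748), and without any 1 of the other 7 libraries it was between -0.997 and -0.769 and no longer called (adjusted p = 0.0608 to 0.162). The call was also lost in DESeq2 (-0.94, adjusted p = 0.0774) and with Mki67 as a covariate (-0.86 ± 0.29, edgeR adjusted p = 0.178, background 1.03%). Mean Mki67 was itself lower in knockouts (102 ± 30.2 CPM) than in controls (174 ± 75.5), though not called. Chimera controls 3 and 4 held more B and plasma cell marker mRNA (131.5 and 123 CPM, against 62.5 to 77.7 in the other 6 libraries), and without both Uhrf1 was at -1.06 ± 0.31 (edgeR adjusted p = 0.127). In bulk libraries such as these, fewer cells with a transcript and less of it per cell cannot be told apart.

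In labeled Treg cells, which had the reporter switched on, Uhrf1 covered much the same range in both genotypes. Control labeled 1 to 5 held 59.3, 63.2, 103.8, 15.4 and 11.3 CPM (50.6 ± 38.2, n = 5). In fl/fl labeled cells the lowest, median and highest of the 6 libraries were 10.4, 44.1 and 88.5 CPM (46.2 ± 34.3). Both groups held high libraries in numbers 1 to 3 and low ones from 4 on, and they overlapped fully. The log2 difference was -0.15 ± 0.60 (edgeR adjusted p = 0.961), with a 95% interval from -1.39 to 1.08 that holds changes of over 2-fold in both directions.

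In ex-Foxp3 cells, which had lost Foxp3-GFP, Uhrf1 was low in both genotypes. Control ex-Foxp3 1 to 5 held 24.1, 34.2, 14.9, 7.30 and 16.3 CPM (19.4 ± 10.2, n = 5), and the 6 fl/fl libraries ran from 6.99 to 26.2 with a median of 15.1 (16.7 ± 7.74). The groups overlapped, with a log2 difference of -0.20 ± 0.68 (edgeR adjusted p = 0.976). In post-tamoxifen Treg cells, GFP+ cells without the reporter's colour, control libraries 1 to 5 held 59.6, 22.1, 36.5, 17.7 and 13.7 CPM (29.9 ± 18.7), and fl/fl libraries 1 to 6 held 150.6, 123.7, 155.8, 18.9, 33.6 and 27.03 (84.9 ± 65.1). Numbers 1 to 3 of the fl/fl group lay above every control, and numbers 4 to 6 lay within the controls. The genotype difference of 1.62 ± 0.64 in log2 was not called (edgeR adjusted p = 0.113), and with Mki67 as a covariate it was -0.04 ± 0.27 (adjusted p = 0.967). In numbers 1 to 3 alone it was 1.99 ± 0.41 and called (edgeR adjusted p = 0.00481, background 13.4%), and in numbers 4 and above alone it was 0.73 ± 0.37 and not called (adjusted p = 0.368). Numbers 1 to 3 of the fl/fl post-tamoxifen group were also the libraries with the most Mki67 and the most B and plasma cell marker mRNA given above.

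Between populations of fl/fl mice, Uhrf1 was lower in ex-Foxp3 than in post-tamoxifen cells, in 6 of 6 numbers. The log2 fold change was -2.36 ± 0.61 (edgeR adjusted p = 0.00941). These populations differ both in the reporter, the mark of Cre action, and in Foxp3-GFP. Deletion of Uhrf1 and loss of Foxp3 therefore cannot be told apart in this comparison. With Mki67 as a covariate the difference was -0.98 ± 0.26 and still called (edgeR adjusted p = 0.00908, background 13.4%), which is over 1.5 times smaller in log2. With both Mki67 and the library number as a block it was -1.03 ± 0.34 and not called (adjusted p = 0.0552), and in numbers 4 to 6 alone it was -0.91 ± 0.33 and not called (adjusted p = 0.0606). Against labeled cells, the ex-Foxp3 level of Uhrf1 differed by -1.44 ± 0.67 in controls and -1.48 ± 0.62 in fl/fl mice in log2 (edgeR adjusted p = 0.491 and 0.191), neither called, and in numbers 1 to 3 of fl/fl mice alone by -2.002 ± 0.43 (called, adjusted p = 0.0120, background 5.26%). The mean order of the 6 pulse-chase groups ran from fl/fl post-tamoxifen (84.9) through control labeled (50.6), fl/fl labeled (46.2), control post-tamoxifen (29.9) and control ex-Foxp3 (19.4) to fl/fl ex-Foxp3 (16.7). No 2 neighbours in that order differed by more than the larger of their SDs.

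**Figure D2:**
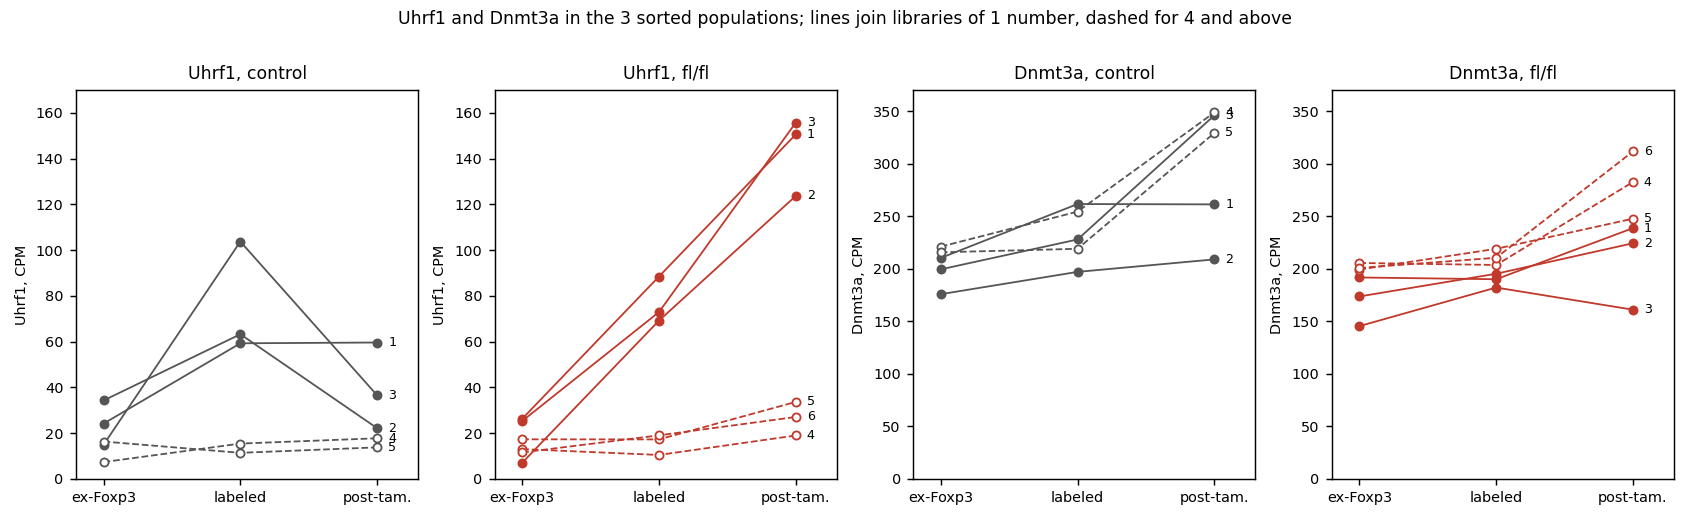
Uhrf1 (left pair) and Dnmt3a (right pair) in CPM in ex-Foxp3, labeled and post-tamoxifen cells of control (grey) and fl/fl (red) mice, with linear axes from 0; lines join libraries that share a number, printed at the right, and dashed lines with open points are numbers 4 and above. Uhrf1 of fl/fl numbers 1 to 3 runs up to 124 to 156 CPM in post-tamoxifen cells, and Dnmt3a is lower in ex-Foxp3 than in post-tamoxifen cells in 5 of 5 control and 6 of 6 fl/fl numbers.

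Dnmt1, the maintenance methyltransferase, was not called between chimera genotypes. Chimera controls held 238, 256, 266 and 292 CPM (263 ± 22.4) and knockouts 255, 291, 270 and 255 (268 ± 17.0), groups that overlapped. The log2 difference was 0.03 ± 0.08 with a 95% interval of -0.13 to 0.19. In the pulse-chase experiment Dnmt1 was at 323 ± 51.1 (control, n = 5) and 374 ± 119 CPM (fl/fl, n = 6) in labeled cells, at 296 ± 36.7 and 305 ± 25.5 in ex-Foxp3 cells and at 311 ± 64.1 and 428 ± 118 in post-tamoxifen cells. Its highest levels were those of fl/fl numbers 1 to 3, at 441 to 518 CPM in labeled and 431 to 596 in post-tamoxifen cells, against 254 to 292 and 313 to 361 in numbers 4 to 6. The genotype difference in post-tamoxifen cells was 0.47 ± 0.18 (edgeR adjusted p = 0.103), 0.55 ± 0.18 and called without fl/fl post-tamoxifen 6 (adjusted p = 0.0484), and 0.08 ± 0.09 with Mki67 as a covariate. Between ex-Foxp3 and post-tamoxifen cells of fl/fl mice it was -0.49 ± 0.17 (edgeR adjusted p = 0.0515), just outside the threshold. It was called there without any 1 of fl/fl ex-Foxp3 1 and fl/fl post-tamoxifen 4, 5 and 6 (adjusted p = 0.0253 to 0.0489), with the library number as a block (-0.44 ± 0.10, adjusted p = 0.00111, background 20.8%) and in DESeq2 (-0.51, adjusted p = 0.0217), and not with Mki67 as a covariate (-0.18 ± 0.08, adjusted p = 0.150).

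Hells, the remodelling ATPase, was at 42.9, 31.8, 40.2 and 33.1 CPM in chimera controls and at 35.6, 28.2, 23.2 and 40.2 in chimera knockouts, groups that overlapped (log2 difference -0.21 ± 0.17, edgeR adjusted p = 0.679). In the pulse-chase experiment it ran from 23.1 CPM in fl/fl post-tamoxifen 4 to 143.6 in fl/fl post-tamoxifen 3. Control means were 63.1 ± 16.4 in labeled, 43.1 ± 11.3 in ex-Foxp3 and 39.0 ± 16.8 in post-tamoxifen cells, and fl/fl means were 61.7 ± 38.2, 44.7 ± 13.5 and 73.4 ± 48.4. No comparison called it, and the genotype difference in post-tamoxifen cells went from 0.996 ± 0.42 (edgeR adjusted p = 0.142) to -0.06 ± 0.19 with Mki67 as a covariate.

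Dnmt3a, a de novo methyltransferase and in these libraries the more abundant of the pair per kilobase, was lower in ex-Foxp3 than in post-tamoxifen cells of both genotypes. In controls it was at 210, 176, 199, 221 and 216 CPM in ex-Foxp3 libraries 1 to 5 (204 ± 17.9) and at 261, 209, 346, 349 and 329 in post-tamoxifen libraries 1 to 5 (299 ± 61.5). The groups overlapped only through control post-tamoxifen 2, the library with low Foxp3 and the lowest myeloid marker sum of its group (34.9 CPM). The log2 fold change was -0.55 ± 0.13 (edgeR adjusted p = 0.00751), lower in 5 of 5 numbers. In fl/fl mice ex-Foxp3 cells held 145 to 205 CPM with a median of 195 (186 ± 22.8), and post-tamoxifen libraries 1 to 6 held 239, 224, 161, 283, 248 and 312 (244 ± 51.7). Here too 1 library, fl/fl post-tamoxifen 3 with low Foxp3, lay among the ex-Foxp3 values, though its myeloid marker sum was the highest of its group (552 CPM). The log2 fold change was -0.39 ± 0.12 (edgeR adjusted p = 0.0217) and lower in 6 of 6 numbers. It was no longer called without fl/fl post-tamoxifen 6 (-0.31 ± 0.12, adjusted p = 0.0697), and it was -0.50 ± 0.10 (adjusted p = 0.000405) without the 2 post-tamoxifen libraries of low Foxp3. In numbers 1 to 3 alone neither genotype's difference was called (-0.48 ± 0.16 in controls and -0.29 ± 0.16 in fl/fl mice, adjusted p = 0.286 and 0.306). In controls the summed level of 4 stromal and endothelial markers also moved with Dnmt3a, with 185 to 224 CPM for ex-Foxp3 libraries and 229 to 355 for post-tamoxifen libraries, which did not overlap. The same sums in fl/fl mice overlapped, at 132.8 to 182.5 and 152.9 to 241.5 CPM. Nearly all of that sum was Pecam1, while Col3a1 was at 0 in both control groups and Col1a1 and Cdh5 did not pass 7.68 and 1.58 CPM in them; the part of such transcripts in the level of Dnmt3a was not tested. Unlike that of Uhrf1, the difference of Dnmt3a in fl/fl mice was not smaller with Mki67 as a covariate (-0.51 ± 0.10, edgeR adjusted p = 0.00048).

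Labeled cells lay between the other populations in Dnmt3a, at 232 ± 26.4 CPM in controls (262, 197, 228, 254 and 219 in libraries 1 to 5) and at 200 ± 13.6 in fl/fl mice (182 to 219, median 199). Post-tamoxifen cells were above them by 0.37 ± 0.13 in log2 in controls and by 0.29 ± 0.12 in fl/fl mice, not called (edgeR adjusted p = 0.0741 and 0.189). Without the 2 post-tamoxifen libraries of low Foxp3 both were called (0.46 ± 0.11 and 0.38 ± 0.10, edgeR adjusted p = 0.00231 and 0.0139, backgrounds 11.6% and 5.25%). With the library number as a block the fl/fl difference was also called (0.26 ± 0.08, edgeR adjusted p = 0.0429, background 8.11%). Between genotypes Dnmt3a was lower in the floxed group in each of the 4 comparisons, at -0.11 ± 0.08 in chimera cells, -0.21 ± 0.13 in labeled, -0.14 ± 0.12 in ex-Foxp3 and -0.29 ± 0.12 in post-tamoxifen cells, and none was called (edgeR adjusted p = 0.591, 0.625, 0.858 and 0.133). The difference in post-tamoxifen cells was called without control post-tamoxifen 2 (-0.39 ± 0.12, adjusted p = 0.0335) or without fl/fl post-tamoxifen 6 (-0.37 ± 0.12, adjusted p = 0.0449). In the mean order of the pulse-chase groups only 1 step exceeded the larger SD, from control labeled (232) to control ex-Foxp3 (204).

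Dnmt3b, the other de novo enzyme, was barely sampled, at 36 to 79 counts in chimera libraries and 6 to 39 in pulse-chase libraries. Its chimera values of 13.2, 13.96, 13.6 and 17.2 CPM in controls and 12.8, 13.99, 15.2 and 16.1 in knockouts overlapped (log2 difference -0.00 ± 0.23). Pulse-chase group means lay between 8.64 and 11.4 CPM, and no comparison called it. For ex-Foxp3 against post-tamoxifen cells of fl/fl mice the log2 difference was -0.37 ± 0.30, with a 95% interval of -0.99 to 0.24.

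Usp7, the deubiquitinase partner, varied least of the members across the pulse-chase libraries, though not in the chimera experiment, where the coefficients of variation of Dnmt3a (6.67%), Dnmt1 (7.01%) and Mbd1 (7.18%) were below its 8.33%. Its chimera means were 397 ± 22.2 and 401 ± 45.5 CPM, and its pulse-chase means lay between 346 ± 26.2 (fl/fl labeled) and 391.6 ± 13.4 (control ex-Foxp3), with no difference called in any comparison. Uhrf2, the paralog of Uhrf1, was not called between chimera genotypes either, at 131, 132, 144 and 110 CPM in controls and 142, 133, 122 and 144 in knockouts (log2 difference 0.07 ± 0.10, 95% interval -0.13 to 0.26). In fl/fl mice Uhrf2 was at 126 to 138 CPM in ex-Foxp3 cells (135 ± 4.89) and at 102 to 125 in post-tamoxifen cells (118 ± 8.53). These 2 groups did not overlap, which held for no other member in any of the 10 comparisons, yet the log2 difference of 0.19 ± 0.10 was not called (edgeR adjusted p = 0.239). In that comparison the 2 groups did not overlap for 5.48% of all genes.

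Mbd1 and Mbd2, the readers of methylated CpG, were not called in any comparison. Mbd1 group means lay between 67.8 ± 7.40 and 82.1 ± 7.43 CPM in the 8 groups. Mbd2 was higher in the floxed group in each of the 4 genotype comparisons. It was at 233, 248.6, 255 and 227 CPM in chimera controls and 248, 280, 295 and 263 in knockouts (0.17 ± 0.08 in log2, edgeR adjusted p = 0.336), and it differed by 0.12 ± 0.11 in labeled cells (adjusted p = 0.798). In ex-Foxp3 cells controls held 233 to 283 CPM and fl/fl libraries 257 to 431 (0.38 ± 0.11, edgeR adjusted p = 0.162), and in post-tamoxifen cells 261 to 313 and 277 to 433 (0.31 ± 0.11, adjusted p = 0.0773). The former was called without fl/fl ex-Foxp3 6 (0.45 ± 0.11, adjusted p = 0.0473) and the latter without fl/fl post-tamoxifen 6 (0.38 ± 0.11, adjusted p = 0.0264). Groups overlapped in all 4, and these differences rest on separate libraries, though populations of 1 genotype may share mice.

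Over all pulse-chase libraries the levels of Uhrf1, Dnmt1 and Hells followed that of Mki67, much of whose range is the gap between numbers 1 to 3 and the rest. A slope on log2 Mki67 fitted within the 6 pulse-chase groups was called for 4 of 9 members (background 23.9%), of which 3 were positive (background 12.6% positive). For each doubling of Mki67, Uhrf1 rose by 0.78 ± 0.06 in log2 (edgeR adjusted p = 3.34e-12), Hells by 0.50 ± 0.04 (adjusted p = 1.81e-13) and Dnmt1 by 0.22 ± 0.02 (adjusted p = 2.22e-12). Dnmt3a went the other way, at -0.11 ± 0.03 (adjusted p = 0.00168). The slopes of Mbd2 (0.06 ± 0.03, adjusted p = 0.0543), Usp7 (-0.03 ± 0.02), Uhrf2 (-0.02 ± 0.03), Mbd1 (-0.03 ± 0.03) and Dnmt3b (0.03 ± 0.08) were not called, though that of Mbd2 was called when any 1 of 12 libraries was left out (adjusted p = 0.0059 to 0.0492). The slope of Uhrf1 stood above that of 98.1% of genes, that of Hells above 96.4% and that of Dnmt1 above 92.3%.

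**Figure D3:**
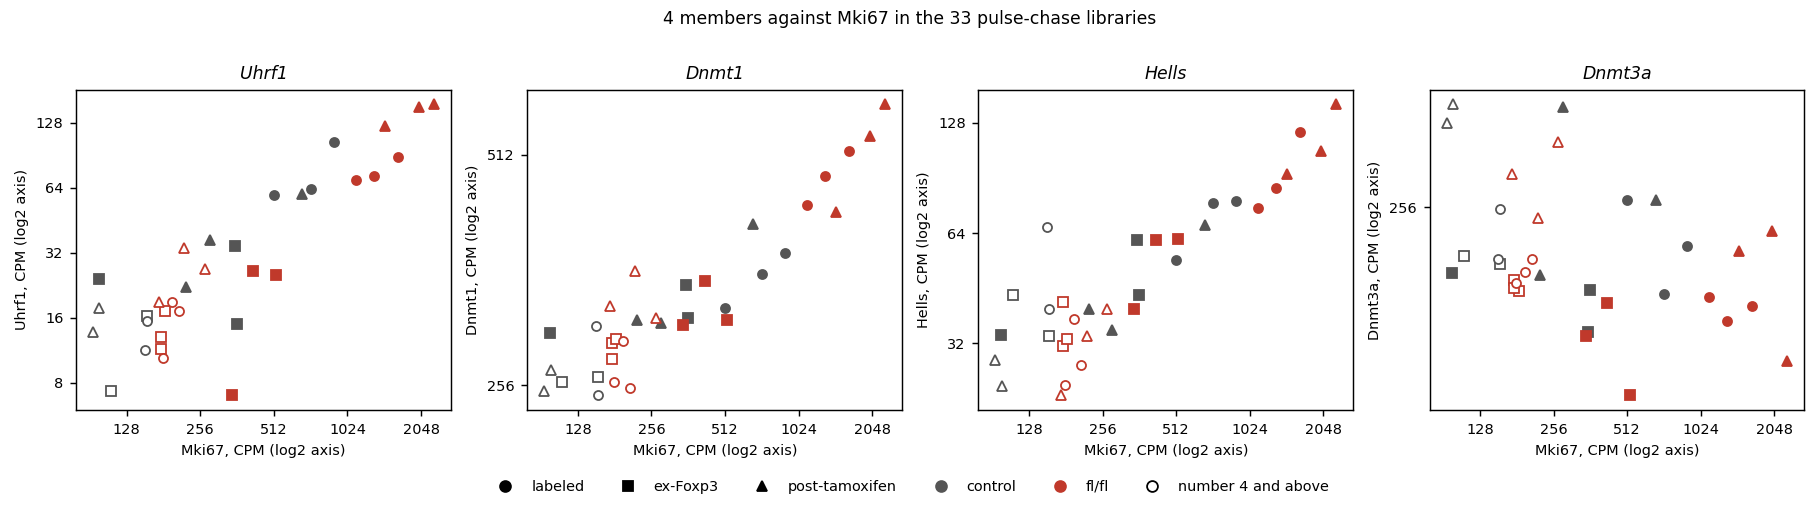
Uhrf1, Dnmt1, Hells and Dnmt3a (vertical, CPM) against Mki67 (horizontal, CPM) in the 33 pulse-chase libraries, log2 scales on both axes with their own ranges; circles are labeled, squares ex-Foxp3 and triangles post-tamoxifen cells, grey is control, red fl/fl, and open symbols are numbers 4 and above. The first 3 members climb with Mki67 from 93.4 to 2316 CPM, fl/fl ex-Foxp3 2 lies lowest in Uhrf1 at 6.99 CPM, and Dnmt3a falls with much scatter.

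Libraries that share a number may share a mouse. With the library number within genotype as a block, the slopes of Uhrf1 (0.76 ± 0.16), Hells (0.50 ± 0.09) and Dnmt1 (0.21 ± 0.05) were still called (edgeR adjusted p = 0.0084, 0.000261 and 0.00466, background 3.42%), while Dnmt3a was at -0.05 ± 0.05 and not called (adjusted p = 0.696). In numbers 1 to 3 alone Hells was called at 0.53 (background 1.18%, adjusted p = 0.00986), and Uhrf1 at 0.48 ± 0.22 (adjusted p = 0.439) and Dnmt1 at 0.20 ± 0.06 (adjusted p = 0.178) were not. In numbers 4 and above alone 0 of 9 members were called with edgeR (background 0%). At an unadjusted p under 0.05, for which no background is given, there was 1 member, Uhrf1, at 1.55 ± 0.70. Over the narrow range of Mki67 there, Dnmt1 was at -0.03 ± 0.23, Hells at 0.36 ± 0.52 and Dnmt3a at 0.14 ± 0.23, so Dnmt1 and Dnmt3a had the opposite sign to that over all libraries. In the chimera experiment, with Mki67 at 60.7 to 251 CPM, no member had a called slope with edgeR (background 0.188%, and 0 members at an unadjusted p under 0.05), and the slope of Uhrf1 was 0.16 ± 0.26.

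**Figure D4:**
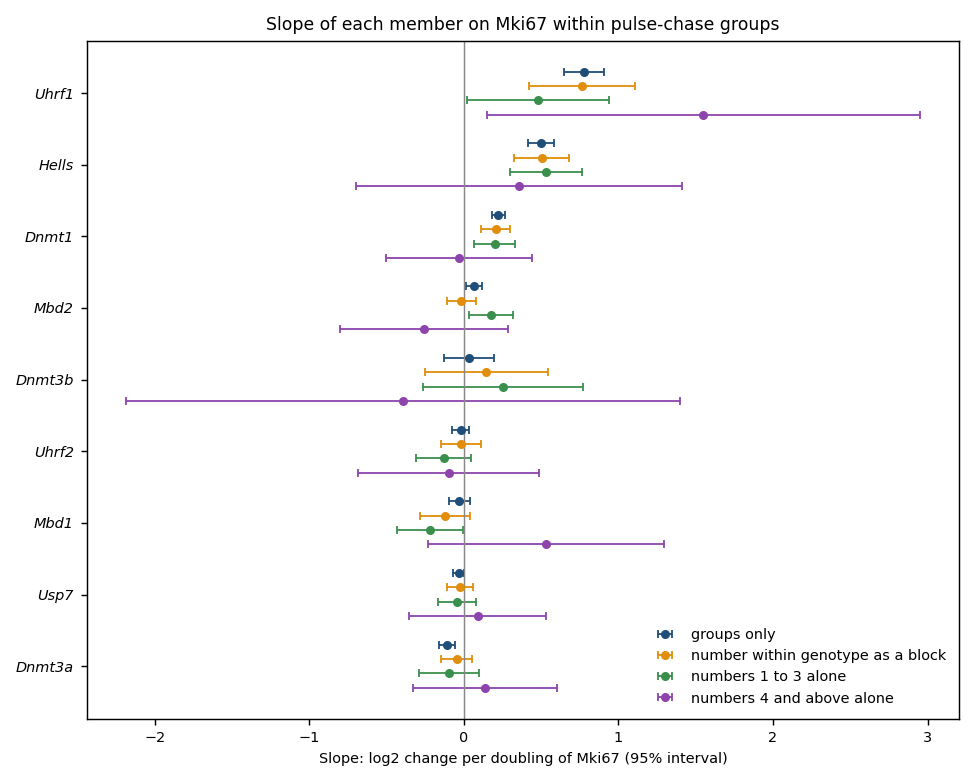
Slope of each member on Mki67 in log2 per doubling (horizontal), with 95% intervals, for the fit with group terms (blue), with the library number within genotype as a block (orange), in numbers 1 to 3 alone (green) and in numbers 4 and above alone (purple). Uhrf1, Hells and Dnmt1 lie right of 0 in the first 3 fits and Dnmt3a is at -0.11, -0.05 and -0.10, while the last fit has wide intervals, with Dnmt1 at -0.03 and Dnmt3a at 0.14.

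As a description over the 33 pulse-chase libraries with group means removed, the correlation with Mki67 in log2 CPM was 0.90 for Uhrf1, 0.92 for Dnmt1 and 0.91 for Hells, and -0.61 for Dnmt3a. Much of this is the gap between the numbers: in the 18 libraries of numbers 1 to 3 the values were 0.46 for Uhrf1, 0.72 for Dnmt1, 0.82 for Hells and -0.26 for Dnmt3a, and in the 15 libraries of numbers 4 and above 0.74, -0.04, 0.27 and 0.27. The 3 also correlated with each other (Uhrf1 with Dnmt1 0.87, Uhrf1 with Hells 0.82, Dnmt1 with Hells 0.92). These points share libraries, depth and, where numbers are mice, animals. Among 7235 genes, those most like Uhrf1 were Kif15 (r = 0.93), Ncapg2, Mcm5, Kif11 and Dlgap5 (0.91 each), which are mitotic motor, condensin, replicative helicase and spindle genes. Those most like Dnmt1 were Tubb5 (0.94), Kif11, Lmnb1, H2afx and Hmmr, and those most like Hells were Hmgb2, Lmnb1, Dnmt1 (0.92), Kif11 and H2afx. Within a number, the population with the most Uhrf1 was also the one with the most Mki67 in 9 of 11 numbers, and the full order of the 3 populations matched in 6 of 11.

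The ratio of Uhrf1 to Mki67 in the same library was lower in fl/fl than in control libraries in each population, without passing the test. A ratio takes Uhrf1 to rise with a slope of 1 on Mki67, while the fitted slope was 0.78 ± 0.06. The ratio thus falls where Mki67 is higher. Mean Mki67 was higher in fl/fl than in control mice, at 777 against 489 CPM in labeled, 305 against 215 in ex-Foxp3 and 1073 against 273 in post-tamoxifen cells. A lower ratio in these populations therefore does not by itself show less Uhrf1 at a given Mki67. In chimera cells Mki67 went the other way, at 102 ± 30.2 CPM in knockouts against 174 ± 75.5 in controls, groups that overlapped. That log2 difference was -0.74 ± 0.39 and not called (edgeR adjusted p = 0.512). In labeled cells there were 9.84 ± 1.79 CPM of Uhrf1 per 100 CPM of Mki67 in controls (7.47 to 11.6) and 6.82 ± 1.77 in fl/fl mice (5.35 to 9.72), groups that overlapped. The difference in the log2 ratio was -0.54 ± 0.18, with a 2-sided exact permutation p of 0.0260 and 0.104 after Benjamini-Hochberg adjustment over 4 comparisons. In ex-Foxp3 cells the log2 ratio differed by -0.75 ± 0.51 (exact permutation p = 0.186, adjusted 0.248), in post-tamoxifen cells by -0.42 ± 0.26 (exact permutation p = 0.147, adjusted 0.248) and in chimera cells by -0.29 ± 0.46 (exact permutation p = 0.543, adjusted 0.543). Leaving out 1 library moved the ex-Foxp3 value over -1.04 (without control ex-Foxp3 3) to -0.40 (without control ex-Foxp3 1), and the chimera value over -0.53 (without control 3) to -0.02 (without control 1), and none passed the adjusted test. With a list of 30 S phase genes in place of Mki67 the post-tamoxifen difference turned to 0.44 ± 0.30 (exact permutation p = 0.173). The others stayed negative, at -0.85 ± 0.28 in chimera cells (exact permutation p = 0.0571, adjusted 0.229), -0.39 ± 0.34 in labeled and -0.22 ± 0.36 in ex-Foxp3 cells.

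Genes that work beside the members were read from a list of 32 methylation partners, of which 31 were tested. Between chimera genotypes 1 rose, Mat2a (0.40 ± 0.09), which makes the methyl donor, and 2 fell, Tet2 (-0.31 ± 0.08), which oxidises methylcytosine, and Ehmt2 (-0.35 ± 0.09), a histone H3 lysine 9 methyltransferase, so 3 of 31 were called where 2.41% of all genes were. The list's median log2 change there was 0.00, as was that of all genes. Between genotypes in post-tamoxifen cells 2 rose, Cdca7 (0.94 ± 0.24), the partner of HELLS in remodelling, and Cdca7l (0.55 ± 0.17), and 2 fell, Tet3 (-0.65 ± 0.12) and Ehmt1 (-0.48 ± 0.11), so 4 of 31 were called where 7.23% of all genes were, with medians of -0.01 for the list and 0.01 for all genes. From labeled to post-tamoxifen cells of controls 3 of 31 partners rose, Tet1 (1.05 ± 0.25), Tet3 and the deacetylase gene Hdac1. There 1 fell, Zbtb38, and 7.93% of all genes were called. In fl/fl mice only Tet1 was called, with a rise of 0.89 ± 0.24 (1 of 31, where 4.58% of all genes were called).

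Between ex-Foxp3 and post-tamoxifen cells every called partner was lower in ex-Foxp3 cells. In controls 2 of 31 fell, Tet3 (-0.53 ± 0.12) and Hdac1 (-0.36 ± 0.10), where 2.76% of all genes fell. In fl/fl mice 8 of 31 fell, led by Cdca7 (-0.93 ± 0.22), Hdac1 (-0.37 ± 0.09), Hdac2 (-0.40 ± 0.11) and the DNA ligase gene of replication, Lig1 (-1.22 ± 0.34), where 9.39% of all genes fell, with a list median of -0.17 against 0.01 over all genes. Alongside, 16 of 30 S phase and 15 of 20 G2/M genes fell there, beside the same 9.39% of all genes, with medians of -1.22 and -2.48. On Mki67, 7 partners had a positive slope, led by Lig1 (0.42 ± 0.04), Pcna (0.31 ± 0.03), the sliding clamp of replication, and Cbx5 (0.21 ± 0.03), a heterochromatin protein gene, and 1 a negative slope, Zbtb4 (-0.16 ± 0.03), so 8 of 31 were called beside 23.9% of all genes. The slope was positive for 29 of 30 S phase genes (median 0.42, beside 0.78 for Uhrf1 and 0.50 for Hells) and 20 of 20 G2/M genes (median 1.15), beside 12.6% of all genes.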

How the data were processed

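Per the labels' protocols, RNA of sorted cells (AllPrep kit) was turned into stranded total RNA libraries (SMARTer kit). The submitters' processing notes name bcl2fastq 2.17.1.14, TopHat2 2.1.0 and the build mm10 (GRCm38). The deposited table holds the authors' counts, whole numbers and not normalized, of 19434 genes in 41 libraries. How reads were counted, and with which annotation and strand setting, is not given in the sources used here. Some rows carry a gene identifier that belongs to another gene, so rows were taken by symbol, and their coordinates were checked against GENCODE M21.

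Groups came from the labels. The members and the gene lists were chosen with earlier results of these data known. Genes were tested with edgeR 4.0.16 under R 4.3.3 (scaling by TMM, default count filter by group, robust quasi-likelihood F-test, 2-sided, Benjamini-Hochberg over all genes tested, threshold 0.05). Of all genes, 9569 were tested in the 8 chimera libraries and 9921 in the 33 pulse-chase libraries, with common biological coefficients of variation of 0.134 and 0.215. P-values measure the spread between these libraries. Log2 changes carry SE and levels SD. The slope fits add log2 CPM of Mki67 (prior count 2) to the groups. Ratios of Uhrf1 to Mki67 were compared by exact permutation tests over libraries. The text names all members, Mki67 and Foxp3, and from each list at most 4 called genes with the smallest p.

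On simulated counts the chimera fit recovered 88 of 100 genes changed by 1 in log2 and 98 of 100 changed by 2. The genotype test in labeled cells recovered 70 and 89, and the slope test 89 and 99 at slopes of 0.5 and 1. The changed genes were picked at random and their counts otherwise varied independently between libraries. These rates are therefore not those of a single member such as Uhrf1, whose SE in labeled cells was 0.60. DESeq2 1.42.0, other scalings and filters, covariates, a block for the library number and leaving out libraries were tried. Labels do not tie numbers to mice. Same-numbered libraries deviated together in every pair (correlation over 0.1) for ex-Foxp3 against labeled cells (lowest 0.138 in controls and 0.144 in fl/fl mice), and for ex-Foxp3 and labeled against post-tamoxifen cells of fl/fl mice (lowest 0.127 and 0.244), and there the block is given beside the result where it changes a call. Same-numbered labeled libraries of the 2 genotypes, which are different mice, also correlated, at 0.0816 to 0.294. Such correlations therefore do not by themselves show a shared mouse. Correlations within fl/fl groups were not computed, because Mki67 falls into 2 clusters of 3 libraries.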

Additional observations from a re-analysis of the deposited data

Results flagged for a closer look

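Of 72 sets of a member and a group of 4 to 6 libraries, 3 held a library that stands apart from the others by Dixon's criterion, a number near the 1 in 20 that chance gives. Uhrf1 in chimera control 1 was at 32.5 CPM, above the 22.3 to 23.4 of the other 3 controls, and without this library the difference of Uhrf1 between chimera genotypes was -0.80 ± 0.27 (edgeR adjusted p = 0.162). Uhrf2 in fl/fl post-tamoxifen 3, a library of low Foxp3, was at 102 CPM, below the 117 to 125 of its group. Usp7 in control post-tamoxifen 1, the library of lowest depth with 781437 counts, was at 336 CPM, below the 386 to 405 of its group.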

How the results depend on the processing

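Of the 9 members, the chimera genotype comparison called 1 (Uhrf1) and 0 with Mki67 or the G2/M list as a covariate, without chimera controls 3 and 4, and in DESeq2, with 0 to 1 when leaving out 1 library. Calls per comparison when leaving out 1 library were 0 to 1 for genotype in ex-Foxp3 cells (Mbd2, without fl/fl ex-Foxp3 6), 0 to 3 in post-tamoxifen cells (Dnmt3a without control 2; Dnmt1, Dnmt3a and Mbd2 without fl/fl 6), and 0 to 1 for post-tamoxifen against labeled cells (Dnmt3a) in controls without post-tamoxifen 2 and in fl/fl mice without post-tamoxifen 3. With the replicate block the calls were 1 (Mbd2; 2.31% of all genes called) for genotype in ex-Foxp3 cells, 5 in post-tamoxifen cells (Uhrf1, Dnmt1, Hells, Dnmt3a and Mbd2; 16.6%), and for post-tamoxifen against labeled cells 2 in controls (Dnmt3a and Hells; 12.9%) and 1 in fl/fl mice (Dnmt3a; 8.11%). In these genotype comparisons the libraries come from different mice and share only a number (correlations 0.0303 to 0.163 and -0.0820 to 0.243). For post-tamoxifen against labeled controls the labels do not say whether a number is 1 mouse. Those pairs correlated at -0.0238 to 0.253, lowest in number 2, and the correlations cannot settle it. With the block and Mki67 together, 1 was called in each of post-tamoxifen against labeled controls, the same in fl/fl mice, and ex-Foxp3 against post-tamoxifen cells of fl/fl mice (Dnmt3a each time). Of all genes, 8.81%, 8.89% and 10.9% were called there.

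Splits by number were chosen after seeing the data. In numbers 1 to 3 alone the calls were 1 for genotype in ex-Foxp3 cells (1.44% of all genes called), 3 in post-tamoxifen cells (Uhrf1, Dnmt1 and Hells; 13.4%), 2 for ex-Foxp3 against labeled cells of fl/fl mice (Uhrf1 and Dnmt1; 5.26%), 0 for ex-Foxp3 against post-tamoxifen controls (0%) and 1 for the pulse-chase slope (1.18%). In numbers 4 and above alone they were 2 for post-tamoxifen against labeled controls (7.79%) and 1 for the same in fl/fl mice (7.79%). For ex-Foxp3 against post-tamoxifen cells they were 1 in controls (6.99%) and 1 in fl/fl mice (12.4%), and for the slope 0 (0%). Without the 2 post-tamoxifen libraries of low Foxp3, 1 (Dnmt3a) was called for post-tamoxifen against labeled cells in each genotype. Of all genes, 11.6% were called there in controls and 5.25% in fl/fl mice.

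Several values changed sign. Uhrf1 between genotypes in post-tamoxifen cells was -0.42 relative to Mki67 and 0.44 relative to the S phase list. Uhrf1 by genotype in labeled cells (-0.15) was at 0.0113 with the replicate block, 0.64 without control numbers 2 and 3, 0.0268 in numbers 1 to 3, 0.23 in numbers 4 and above, and -0.41 to 0.28 when leaving out 1 library. In ex-Foxp3 cells (-0.20) Uhrf1 was at 0.0037 with the replicate block, 0.0501 without control numbers 2 and 3, 0.17 in numbers 4 and above and -0.40 to 0.0759 when leaving out 1 library. Uhrf1 with Mki67 as a covariate was at -0.0374 for genotype in post-tamoxifen cells (1.62 without it), and for post-tamoxifen against labeled controls at 0.0257, with the block as well at 0.0391, and in numbers 4 and above at 0.19. The chimera slope of Uhrf1 was -0.10 with the replicate block, -0.0405 on the G2/M list and -0.10 to 0.34 when leaving out 1 library. In numbers 4 and above the pulse-chase slopes of Dnmt1 and Dnmt3a were -0.031 and 0.14, against 0.22 and -0.11 over all numbers. The cause was not tested. Other scalings and filters changed no count of calls by over 1.5 times, and correlations within fl/fl groups were not run. Depth limits Dnmt3b and Uhrf1, which rest on as few as 6 and 11 counts in a library.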
